A study of Arabidopsis thaliana with 9 samples.

Results

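The glutamate receptor-like (GLR) genes of Arabidopsis thaliana were described in whole plants grown with 2,5-dichlorobiphenyl (2,5-DCB), with its derivative 4'-OH-2,5-DCB, which carries a hydroxyl group, or without either compound. Members were the probe sets that the platform annotation pairs with exactly 1 gene and whose current symbol is GLR followed by a clade number of 1 to 3 and a gene number. This rule found 9 genes with 1 probe set each, among 16550 genes (16722 probe sets) that could be named in this way. The family has 20 listed loci, so 11 lie outside the rule. Of these, ATGLR1.2 was tested under its older symbol, and 10 are not analysed here.

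The 3 groups had 3 arrays each. The medium of the exposed plants held 50 mg/L of 2,5-DCB or 5 mg/L of the hydroxylated compound, and that of the control plants only the carrier, acetone. Every plant was 21 days old and was taken whole, and each treatment used 6 boxes of 5 plantlets. The sources used here name neither the plant accession nor the boxes behind each array. A p-value therefore reflects how these arrays vary, and that variation may be technical. The doses differ between the exposures, so the effect of the hydroxyl group and that of the dose cannot be told apart.

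GLR proteins are ligand-gated, calcium-permeable cation channels of the plasma membrane and of organelles, related by sequence to the ionotropic glutamate receptors of animals. Plant GLR channels are opened by various amino acids or by glutathione, and the calcium that enters is read by sensor proteins such as calmodulins and calmodulin-like (CML) proteins. The family is divided into 3 clades. Clade III members carry wound-triggered electrical and calcium signals from leaf to leaf in Arabidopsis, and clade II members GLR2.7, GLR2.8 and GLR2.9 act in the calcium influx that follows recognition of microbial molecules.

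The 9 members comprised 1 of 4 clade I genes (GLR1.4), 5 of 9 clade II genes (GLR2.2, GLR2.3, GLR2.7, GLR2.8 and GLR2.9) and 3 of 7 clade III genes (GLR3.3, GLR3.5 and GLR3.6). They lie on 3 chromosomes. In the gene order of RefSeq (TAIR10.1), GLR2.9, GLR2.8 and GLR2.7 (AT2G29100, AT2G29110 and AT2G29120) are consecutive genes on chromosome 2, as are GLR2.3 and GLR2.2 (AT2G24710 and AT2G24720). GLR3.5 (AT2G32390) is also on chromosome 2, next to GLR5 (AT2G32400), a family locus that is not analysed here. GLR3.3 (AT1G42540) is on chromosome 1, and GLR1.4 (AT3G07520) and GLR3.6 (AT3G51480) are on chromosome 3. Tandem paralogs can share probe sequence, so the values of neighbouring members may not be separate measurements.

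Values are log2 signals as deposited. Medians of the arrays over the tested probe sets were 4.69 to 4.91. Replicate 1 of 4'-OH-2,5-DCB stood apart, its probe sets having an SD of 1.68, compared with 2.13 to 2.20 on each other array. It was the lowest of the 9 arrays for 4 members (GLR1.4, GLR2.7, GLR3.3 and GLR3.5) and the highest for GLR2.3, so a difference that changed sign or moved by over 1.5 times without it is also given without it. A value was called at an adjusted p under 0.05 (Benjamini-Hochberg over all 16722 probe sets, in a limma fit of the 9 arrays).

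Under 2,5-DCB, 2 of the 9 GLR genes passed the test, in opposite directions. GLR2.7 of clade II rose and GLR3.6 of clade III fell. Over all tested probe sets 4.65% passed in this comparison, 1.82% higher and 2.82% lower. With 9 members, 1 call in each direction does not set the family apart from that background. No GLR gene passed under 4'-OH-2,5-DCB, where 2.91% of all probe sets did, 1% higher and 1.9% lower. The 4 tested root markers had median differences of 1.01 under 2,5-DCB and 1.45 under the hydroxylated compound. They include the beta-glucosidase genes BGLU21, BGLU22 and PYK10, of which PYK10 did not pass under 2,5-DCB (limma adjusted p 0.0770). The root marker EXPA7 did not pass under either exposure. The leaf marker LHCB4.2 fell by 0.95 under 2,5-DCB, and the leaf marker RCA did not pass. In whole plants a different share of an organ or cell type and a different amount of RNA per cell cannot be told apart, and the part of these markers in the GLR values was not tested.

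**Figure D1:**
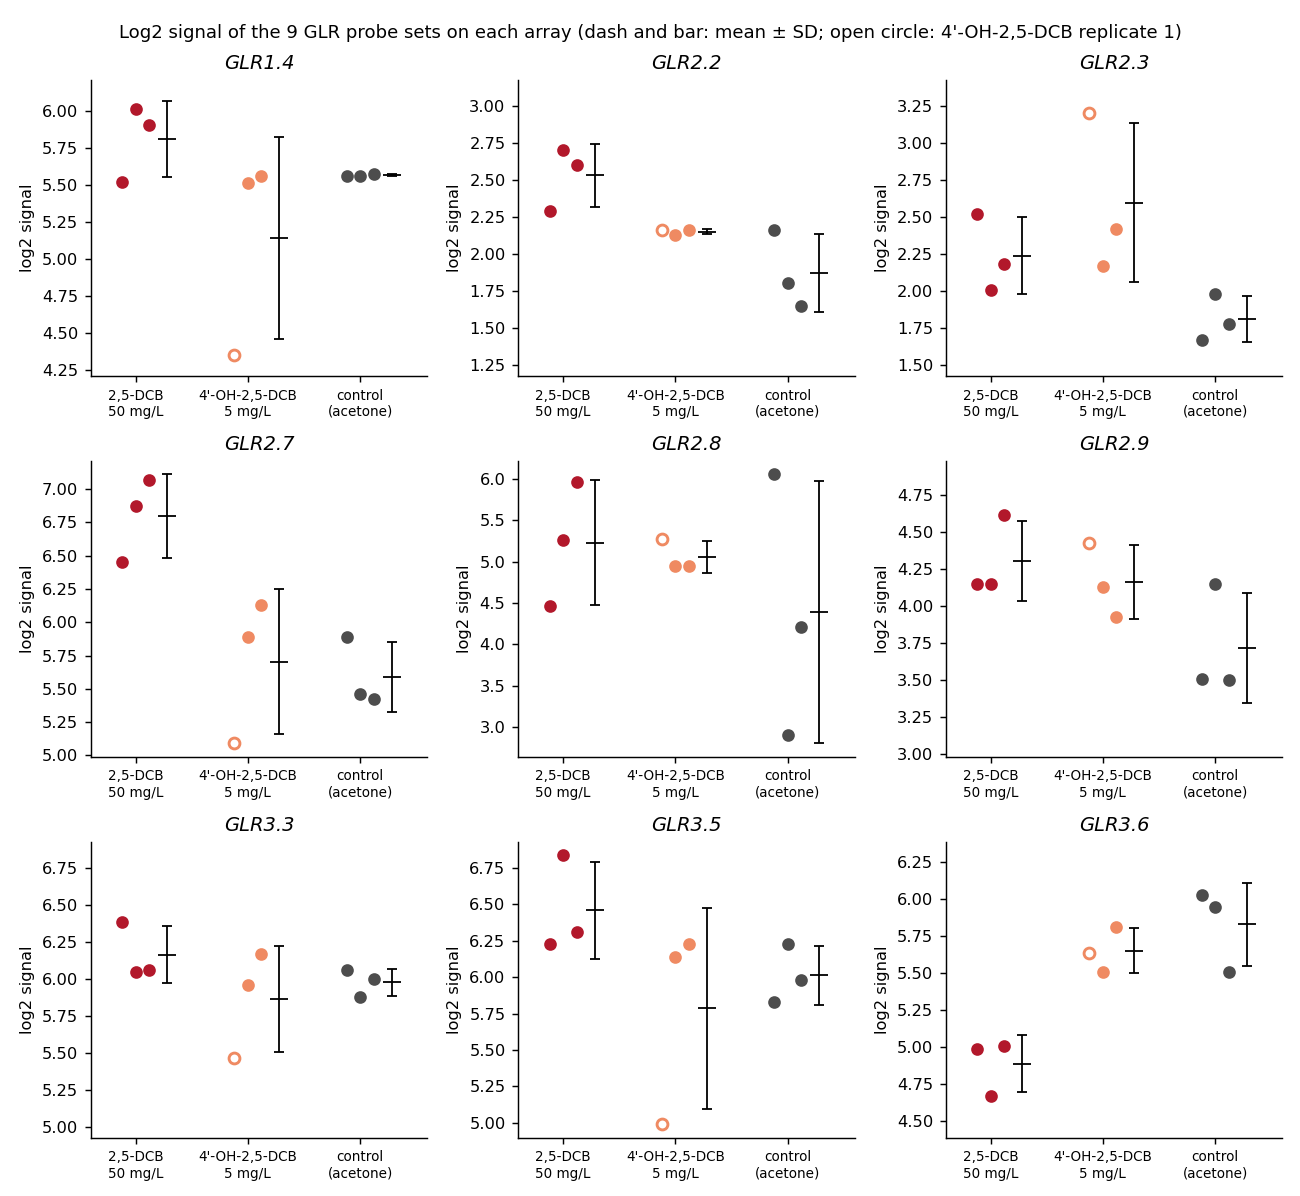
Log2 signal of each GLR gene (1 panel per gene) on every array, with the groups 2,5-DCB, 4'-OH-2,5-DCB and control from left to right; points are arrays, the dash and bar beside them give mean ± SD (n = 3), and the open circle is 4'-OH-2,5-DCB replicate 1. The 3 arrays of 2,5-DCB lie above the other 6 for GLR2.7 and below them for GLR3.6.

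GLR2.7 had log2 signals of 6.45, 6.87 and 7.07 with 2,5-DCB, 5.09, 5.89 and 6.13 with 4'-OH-2,5-DCB, and 5.89, 5.46 and 5.42 in the control. Every 2,5-DCB array was above the other 6 arrays, whereas the 4'-OH-2,5-DCB and control arrays overlapped. The mean was 6.80 ± 0.32 under 2,5-DCB and 5.59 ± 0.26 in the control (SD, n = 3 each), a log2 difference of 1.21 (SE 0.29, 95% interval 0.56 to 1.85, limma adjusted p 0.0478) or 2.31-fold. Under 4'-OH-2,5-DCB the difference from control was 0.11 (-0.53 to 0.76, adjusted p 0.835), and 0.42 (adjusted p 0.301) without replicate 1 of that group. The call under 2,5-DCB was made in 2 of the 9 fits that left out 1 array, those without 4'-OH-2,5-DCB replicate 1 or 3. It was absent without any single 2,5-DCB or control array and without 4'-OH-2,5-DCB replicate 2. The highest adjusted p among those fits was 0.191, while the log2 difference stayed between 1.07 and 1.38. The call was also absent with arrays centred on their medians (adjusted p 0.0655) and with all probe sets tested, named or not (adjusted p 0.0689). With a replicate block, a term for the replicate number added to the limma fit, it was absent too (adjusted p 0.0855).

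The tandem neighbours of GLR2.7 had values in the same direction that did not pass. GLR2.8 was at 4.46, 5.26 and 5.97 with 2,5-DCB, 5.28, 4.95 and 4.95 with 4'-OH-2,5-DCB, and 6.06, 2.90 and 4.21 in the control. The control arrays alone spanned the values of both exposures, and the difference under 2,5-DCB was 0.84 (-0.69 to 2.37, adjusted p 0.693) and that under 4'-OH-2,5-DCB 0.67 (-0.86 to 2.20, adjusted p 0.589). The first of these was 1.68 without control replicate 1 and 0.10 without control replicate 2, and did not pass in either fit. GLR2.9 was at 4.15, 4.15 and 4.62 with 2,5-DCB, 4.43, 4.13 and 3.93 with 4'-OH-2,5-DCB, and 3.51, 4.15 and 3.50 in the control. Control replicate 2 reached the level of the exposed arrays in GLR2.9, so neither exposed group was clear of the control. Its difference was 0.59 under 2,5-DCB (0.06 to 1.12, adjusted p 0.253) and 0.44 under 4'-OH-2,5-DCB (-0.09 to 0.97, adjusted p 0.376), or 0.31 without replicate 1 of that group.

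GLR2.2 and GLR2.3, the other tandem pair of clade II, were dim. Both lay below the 25th percentile of the tested probe sets on all 9 arrays, so their values may be background and the sizes of their differences are uncertain. GLR2.2 was at 2.29, 2.7 and 2.6 with 2,5-DCB, 2.16, 2.13 and 2.16 with 4'-OH-2,5-DCB, and 2.16, 1.80 and 1.65 in the control. The 2,5-DCB arrays were above all others in GLR2.2, with a difference from control of 0.66 (0.25 to 1.07, adjusted p 0.0800). Under 4'-OH-2,5-DCB its difference was 0.28 (-0.13 to 0.69, adjusted p 0.441). The first of these passed when 4'-OH-2,5-DCB replicate 1 was left out (adjusted p 0.0323), in a fit that called 12.9% of all probe sets. It also passed with array weights, which give deviating arrays less weight (adjusted p 0.0137), where 14.7% were called. GLR2.3 was at 2.52, 2.01 and 2.18 with 2,5-DCB, 3.20, 2.17 and 2.42 with 4'-OH-2,5-DCB, and 1.67, 1.98 and 1.78 in the control. The arrays of each exposure lay above those of the control for GLR2.3. Its difference was 0.43 under 2,5-DCB (-0.17 to 1.03, adjusted p 0.533) and 0.79 under 4'-OH-2,5-DCB (0.19 to 1.39, adjusted p 0.173). Without replicate 1 of 4'-OH-2,5-DCB, the array highest for GLR2.3, the second value was 0.48.

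As a group, the 5 clade II genes had mean values above control under each exposure, where 9318 (2,5-DCB) and 10037 (4'-OH-2,5-DCB) of all 16722 probe sets lay above 0. Under 4'-OH-2,5-DCB, GLR2.7 was at -0.1 without replicate 3 of that group, and GLR2.8 at -0.073 without control replicate 2. Of the 5, 1 passed under 2,5-DCB in limma, where 4.65% of all probe sets did. An unadjusted p under 0.05 was found for 3, where 16.1% had one. Under the hydroxylated compound 0 passed in limma, where 2.91% did, and 1 had an unadjusted p under 0.05, where 17.3% did. The median log2 difference was 0.66 under 2,5-DCB, beside 0.04 over all tested probe sets. Under 4'-OH-2,5-DCB it was 0.44, beside 0.10 over all, and 0.42 beside 0.02 without replicate 1. The exposures share the control arrays, so these medians are not independent of each other. The median under 2,5-DCB is the value of GLR2.2, which was dim and may be background. Tandem members of this clade can share probe sequence, so the 5 values may not be separate measurements.

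Clade III held the only GLR gene with a mean below control under 2,5-DCB. GLR3.6, which together with GLR3.3 is needed in Arabidopsis for wound signals to reach distant leaves, was at 4.99, 4.67 and 5.01 with 2,5-DCB, 5.64, 5.51 and 5.81 with 4'-OH-2,5-DCB, and 6.03, 5.95 and 5.51 in the control. The 2,5-DCB arrays were below the other 6, and those of 4'-OH-2,5-DCB lay within the control range. The mean was 4.89 ± 0.19 under 2,5-DCB and 5.83 ± 0.28 in the control (SD, n = 3 each), a log2 difference of -0.94 (SE 0.19, 95% interval -1.37 to -0.51, limma adjusted p 0.0268), which is 1.92-fold lower. Under 4'-OH-2,5-DCB it was -0.17 (-0.60 to 0.25, adjusted p 0.614). GLR3.6 was also the only member to pass the F-test over the 3 groups (adjusted p 0.0441), in which 4.01% of all probe sets passed. GLR2.7 had an F-test adjusted p of 0.0697, and 0.0145 without 4'-OH-2,5-DCB replicate 1.

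The call of GLR3.6 under 2,5-DCB was made in 4 of the 9 fits that left out 1 array, those without control replicate 3 or any 4'-OH-2,5-DCB array. It was absent without any single 2,5-DCB array and without control replicate 1 or 2, where the highest adjusted p was 0.126. With a replicate block in the limma fit of all 9 arrays it was absent too (adjusted p 0.0675). The log2 difference ranged from -1.10 to -0.83 over the 9 fits. Its F-test call was made only in the fit without 4'-OH-2,5-DCB replicate 1 (adjusted p 0.0206) among these 9, and its adjusted p was up to 0.184 in the others. That call was also absent with centred medians (adjusted p 0.0568) and with all probe sets (adjusted p 0.0635). Of the 3 clade III genes, 0 rose and 1 fell under 2,5-DCB, beside 1.82% and 2.82% of all probe sets (median 0.19, beside 0.04 over all). Under the hydroxylated compound 0 passed in limma, where 2.91% of all probe sets did, and 0 had an unadjusted p under 0.05, where 17.3% did. The clade III median there was -0.17, beside 0.10 over all, and 0.09 beside 0.02 without replicate 1 of that group.

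**Figure D2:**
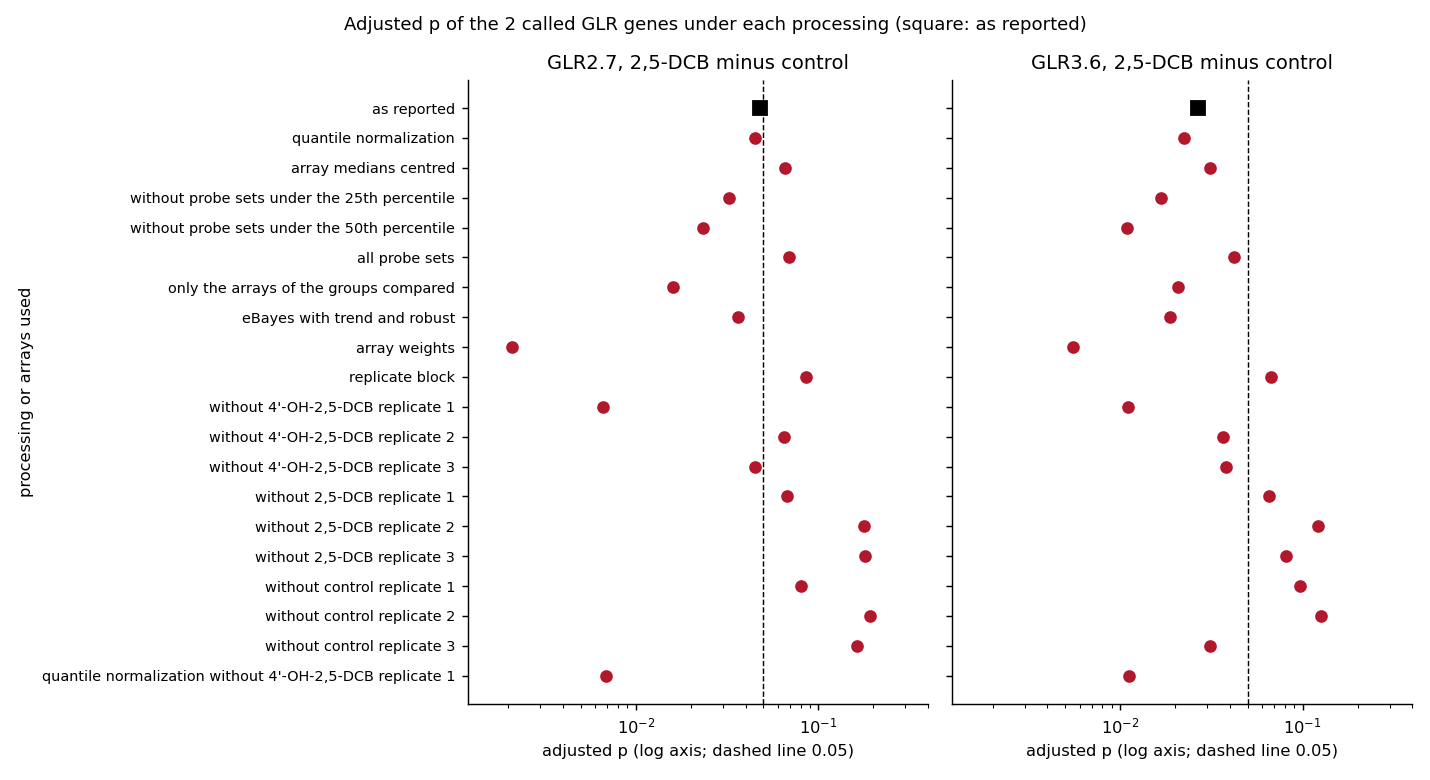
Adjusted p (log axis) of GLR2.7, left, and GLR3.6, right, in the comparison of 2,5-DCB with control, for each way of processing or each set of arrays; the square is the value as reported and the dashed line the threshold of 0.05. GLR2.7 (0.0478 as reported) lies below the line in 9 of 19 alternatives and GLR3.6 (0.0268) in 13 of 19.

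The other clade III genes did not pass in either comparison. GLR3.3 was at 6.39, 6.05 and 6.06 with 2,5-DCB, 5.47, 5.96 and 6.17 with 4'-OH-2,5-DCB, and 6.06, 5.88 and 6.0 in the control. The groups overlapped, with a difference of 0.19 under 2,5-DCB (-0.27 to 0.64, adjusted p 0.830) and -0.11 under 4'-OH-2,5-DCB (-0.57 to 0.35, adjusted p 0.773). These intervals leave out a change of 1 on the log2 scale for GLR3.3 in either direction. GLR3.5, of which an isoform is known from Arabidopsis mitochondria, was at 6.23, 6.84 and 6.31 with 2,5-DCB, 4.99, 6.14 and 6.23 with 4'-OH-2,5-DCB, and 5.83, 6.23 and 5.98 in the control. A single array, 4'-OH-2,5-DCB replicate 1, lay far below the rest for GLR3.5. Its difference was 0.45 under 2,5-DCB (-0.29 to 1.18, adjusted p 0.633) and -0.23 under 4'-OH-2,5-DCB (-0.96 to 0.51, adjusted p 0.700). Without that array the values under 4'-OH-2,5-DCB became 0.17 for GLR3.5 and 0.09 for GLR3.3, so both changed sign.

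GLR1.4, the only clade I member, forms a cation channel opened by methionine when produced in frog oocytes. It was at 5.52, 6.01 and 5.90 with 2,5-DCB, 4.35, 5.51 and 5.56 with 4'-OH-2,5-DCB, and 5.56, 5.56 and 5.57 in the control. As for GLR3.5, 4'-OH-2,5-DCB replicate 1 was far below the others, and without it the difference under 4'-OH-2,5-DCB was -0.03 in place of -0.42 (-1.11 to 0.27, adjusted p 0.480). The difference under 2,5-DCB was 0.24 (-0.44 to 0.93, adjusted p 0.865). The control SD of GLR1.4, 0.004, goes with an identical deposited value on control replicates 1 and 2 and on 4'-OH-2,5-DCB replicate 3. Such exact repeats between arrays occurred in 7 of the 9 members and in 45.3% of all tested probe sets, so the spread of single genes can be understated. ATGLR1.2 (AT5G48400), a clade I gene known for calcium entry in pollen tubes and tested outside the symbol rule, was at 4.60, 4.46 and 4.90 with 2,5-DCB, 4.13, 3.97 and 3.97 with 4'-OH-2,5-DCB, and 4.92, 4.70 and 3.58 in the control. It did not pass under 2,5-DCB (0.26, adjusted p 0.860) or under 4'-OH-2,5-DCB (-0.38, adjusted p 0.527).

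**Figure D3:**
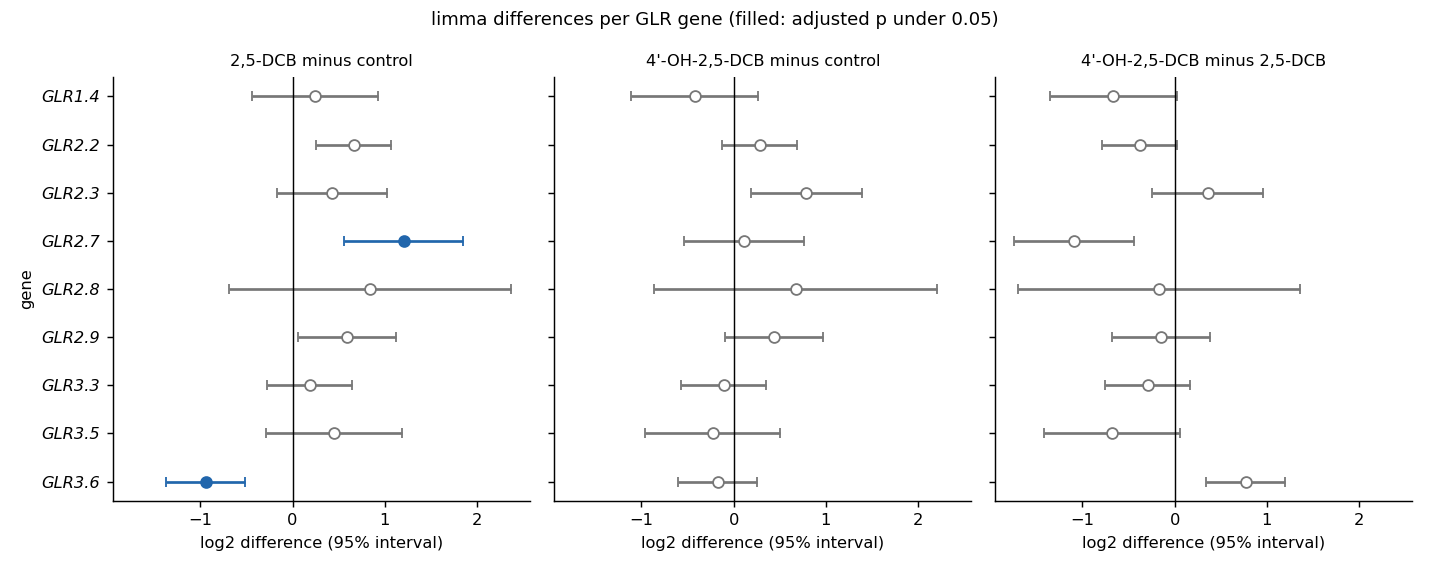
Log2 differences with 95% intervals from limma for each GLR gene, in a panel each for 2,5-DCB against control (left), 4'-OH-2,5-DCB against control (middle) and 4'-OH-2,5-DCB against 2,5-DCB (right); filled points passed an adjusted p of 0.05. In the left panel GLR2.7 (1.21) and GLR3.6 (-0.94) are filled, and no point is filled in the other panels.

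Under 2,5-DCB, 8 of the 9 members had means above control and 1 below, with a median difference of 0.45 beside 0.04 over all tested probe sets, where 9318 of 16722 lay above 0. Under 4'-OH-2,5-DCB, 5 were above and 4 below, where 10037 of 16722 lay above 0 over all. The median was 0.11 beside 0.10 over all (0.28 beside 0.02 without replicate 1). The arrays of 2,5-DCB did not overlap with those of the control for 4 members, GLR2.2, GLR2.3, GLR2.7 and GLR3.6, where 30.9% of all probe sets showed such a separation. For 4'-OH-2,5-DCB this held for 1 member, GLR2.3, against 22.6% of all probe sets. In limma 0 members passed under 4'-OH-2,5-DCB, where 2.91% of all probe sets did. Of the 9, 1, GLR2.3, had an unadjusted p under 0.05, where 17.3% of all probe sets did.

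Set against each other at their different doses, the exposures gave no call for any GLR gene in limma, and 0% of all probe sets passed (1656, or 9.9%, had an unadjusted p under 0.05), while 2 members had an unadjusted p under 0.05. These were the members called under 2,5-DCB. GLR2.7 averaged 5.70 ± 0.54 under 4'-OH-2,5-DCB and 6.80 ± 0.32 under 2,5-DCB (SD, n = 3 each), a difference of -1.09 (95% interval -1.74 to -0.45, adjusted p 0.242), which was -0.79 without 4'-OH-2,5-DCB replicate 1. GLR3.6 averaged 5.66 ± 0.15 under 4'-OH-2,5-DCB and 4.89 ± 0.19 under 2,5-DCB, a difference of 0.77 (0.34 to 1.20, adjusted p 0.228). The 3 arrays of each exposure did not overlap for GLR2.7, GLR3.6 and GLR2.2, a separation seen in 15.2% of all probe sets. Over the alternatives the adjusted p of this difference ranged from 0.0605 to 0.654 for GLR2.7 and from 0.0576 to 0.576 for GLR3.6, so a difference between the exposures was not shown for either gene. For the other 7 members the difference lay between -0.68 (GLR3.5, -1.41 to 0.06) and 0.36 (GLR2.3, -0.24 to 0.96). When 4'-OH-2,5-DCB replicate 1 was left out, that of GLR2.3 was 0.06, that of GLR3.5 -0.28 and that of GLR1.4, -0.67 with all arrays, -0.27.

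The genes with the pattern most like that of GLR3.6, the member with the smallest F-test p, were AT1G02180, AT3G06760, AT5G01260, AT1G23340 and AT4G02000. Their Pearson r with GLR3.6 over the 9 arrays lay between 0.929 and 0.952, and between 0.929 and 0.956 without 4'-OH-2,5-DCB replicate 1. The arrays fall into 3 groups, and in each of these genes the 3 arrays of 2,5-DCB were the lowest of the 9. AT1G02180, for example, was at 4.52, 4.07 and 4.68 with 2,5-DCB, 5.12, 4.94 and 4.96 with 4'-OH-2,5-DCB, and 5.29, 5.23 and 4.98 in the control. Among the members, GLR2.7 and GLR3.6 had an r of -0.74 over the 9 arrays. GLR1.4 and GLR3.5 had an r of 0.93, which was 0.77 without 4'-OH-2,5-DCB replicate 1, the array that was lowest for both.

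Of the non-GLR genes next to a member in gene order, 6 were tested, and 0 passed in limma under either exposure, with 0 at an unadjusted p under 0.05. Beside GLR3.6, AT3G51470 had a log2 difference of -0.49 (adjusted p 0.310) and TMT3 (AT3G51490) one of -0.23 (adjusted p 0.836) under 2,5-DCB.

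Genes that may work with GLR channels were covered unevenly. Some cornichon proteins are cargo receptors that sort GLR proteins to their membranes in Arabidopsis pollen. All 5 cornichon homologues were tested, and whether each of them acts on GLR proteins was not examined. Of these homologues, 1 rose and 0 fell under each exposure. Over all probe sets, 1.82% were called higher under 2,5-DCB and 1% under the hydroxylated compound. AT4G12090 was at 5.27, 5.43 and 5.41 with 2,5-DCB, 4.72, 5.48 and 5.92 with 4'-OH-2,5-DCB, and 4.29, 3.95 and 4.23 in the control. Both exposed groups were above the control, by 1.21 (2.32-fold, adjusted p 0.0389) under 2,5-DCB and by 1.22 (2.33-fold, adjusted p 0.0498) under 4'-OH-2,5-DCB. The first call was made in 2 of the 9 fits without 1 array, those without 4'-OH-2,5-DCB replicate 1 or 3, and the second in 1, that without 4'-OH-2,5-DCB replicate 1 (1.54, adjusted p 0.00311). In the other fits the highest adjusted p was 0.171 for the first call, 0.202 for the second. AT1G12340, with -0.39 under 2,5-DCB and -0.61 under the hydroxylated compound, and AT1G12390, with -0.07 and -0.26, did not pass. The last of these values was 0.003 without 4'-OH-2,5-DCB replicate 1. The median of the list was -0.07 under 2,5-DCB, with -0.13 for the hydroxylated compound (0.003 without its replicate 1).

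Of 17 calmodulin and calmodulin-like genes in the list, 6 were tested. Under 2,5-DCB 1 rose and 2 fell (median -0.10), and under 4'-OH-2,5-DCB 0 rose and 1 fell (median 0.21, or -0.10 without replicate 1 of that group), beside 4.65% and 2.91% of all probe sets called in either direction. An unadjusted p under 0.05 in limma was found for 4 of the 6 under each exposure, beside 16.1% and 17.3% of all probe sets. Without 4'-OH-2,5-DCB replicate 1, CML23, which is named here after its value was seen, also passed under 4'-OH-2,5-DCB (0.61, adjusted p 0.0438). CML38, a wound-responsive calcium sensor gene, was at 5.54, 5.34 and 5.65 with 2,5-DCB, 4.83, 5.73 and 5.20 with 4'-OH-2,5-DCB, and 7.44, 7.68 and 7.28 in the control. It fell by 1.96 on the log2 scale under 2,5-DCB (adjusted p 0.00312) and fell by 2.22 under 4'-OH-2,5-DCB (adjusted p 0.00313), and both calls were made in all 9 fits without 1 array. CML41, whose protein acts in immune closure of plasmodesmata, was at 6.44, 6.96 and 7.11 with 2,5-DCB, 5.48, 4.62 and 4.17 with 4'-OH-2,5-DCB, and 5.07, 4.12 and 4.23 in the control. As in GLR2.7, the 2,5-DCB arrays were above all others in CML41. It rose by 2.36 under 2,5-DCB (5.15-fold, adjusted p 0.00981), with no call without control replicate 2, 2,5-DCB replicate 2 or 2,5-DCB replicate 3 (adjusted p of up to 0.0568), and had 0.29 under 4'-OH-2,5-DCB (adjusted p 0.669), or -0.08 without replicate 1 of that group. CML37, a gene of the response to herbivores, had means of 3.78 ± 0.10 under 2,5-DCB and 4.64 ± 0.31 in the control (SD, n = 3 each). It fell by 0.87 under 2,5-DCB (adjusted p 0.0349), a call made in 3 of the 9 fits without 1 array (those without control replicate 3 or 4'-OH-2,5-DCB replicate 1 or 2), and had -0.50 under 4'-OH-2,5-DCB (adjusted p 0.226). Of the lists for cyclic nucleotide-gated channels (18 genes), glutamate metabolism (17), jasmonate and wounding (25) and calcium and proton transport (11), 0 genes were tested, so the data used here say nothing of them.

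**Figure D4:**
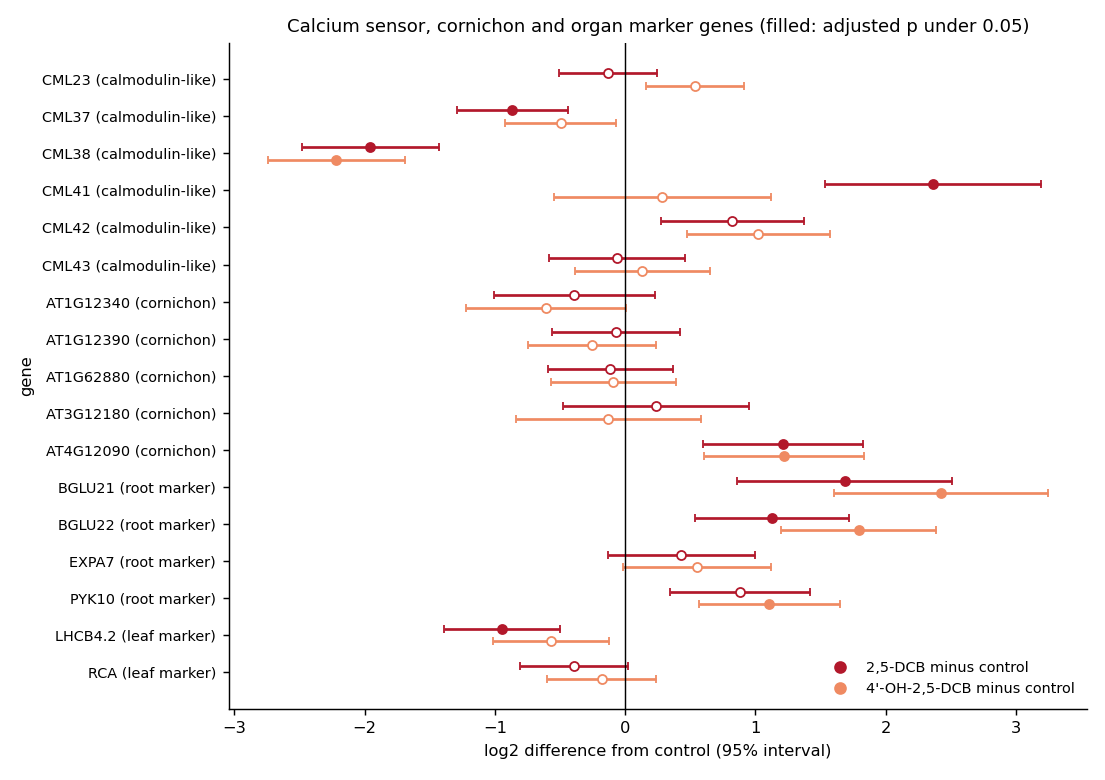
Log2 differences from control with 95% intervals for the tested calmodulin-like and cornichon genes and the organ markers, under 2,5-DCB (dark) and 4'-OH-2,5-DCB (light); filled points passed an adjusted p of 0.05. CML38 is filled below 0 under both exposures, CML41 above 0 under 2,5-DCB (2.36), and the root markers BGLU21 and BGLU22 above 0 under both.

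GLR genes, above all those of clade II, are known to be active in roots. Some organ markers differed between exposed and control plants, and their part in the GLR values was not tested. Of 10 root markers in the list 4 were tested. Of these, 2 rose under 2,5-DCB (median 1.01) while 3 rose under the hydroxylated compound (median 1.45, or 1.63 without its replicate 1). Over all probe sets 1.82% and 1% were called higher. The root markers that rose are all beta-glucosidase genes. The beta-glucosidase gene BGLU21 had log2 differences of 1.68 under 2,5-DCB and 2.43 under the hydroxylated compound. BGLU22, of the same family, had 1.13 and 1.79. PYK10, the main beta-glucosidase gene of root endoplasmic reticulum bodies, had 0.88 and 1.11, of which the first did not pass (adjusted p 0.0770). EXPA7, the remaining tested root marker, had 0.43 (limma adjusted p 0.489) and 0.55 (limma adjusted p 0.303), and did not pass. Its second value was 0.28 without 4'-OH-2,5-DCB replicate 1. The calls of BGLU21 and BGLU22 under 4'-OH-2,5-DCB were made in all 9 fits without 1 array. Under 2,5-DCB they were made in 3 and 2 of the 9 fits, and that of PYK10 under 4'-OH-2,5-DCB in 1, without replicate 1 of that group. The summed linear signal of the 4 tested root markers was 2610 to 3630 under 2,5-DCB and 2910 to 4880 under 4'-OH-2,5-DCB. It was 1330 to 1910 in the control, and 0 markers were at 0. Most of this sum is PYK10, with a mean log2 signal of 10.59 in the control, beside 5.79 for BGLU21, the next highest.

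Of 7 leaf markers 2 were tested. LHCB4.2, a light-harvesting gene, fell by 0.95 under 2,5-DCB (adjusted p 0.0308), a call made in 4 of the 9 fits without 1 array (those without 2,5-DCB replicate 1 or any 4'-OH-2,5-DCB array), and had -0.57 under 4'-OH-2,5-DCB (adjusted p 0.184). RCA, the Rubisco activase gene, had -0.39 under 2,5-DCB and -0.18 under the hydroxylated compound (-0.02 without its replicate 1), and did not pass. The summed linear signal of these leaf markers ranged from 2350 to 2910 under 2,5-DCB, 2510 to 3580 under 4'-OH-2,5-DCB and 3690 to 3820 in the control, with 0 markers at 0. Most of that sum is RCA, with a mean log2 signal of 11.57 in the control, beside 9.46 for LHCB4.2. No flower marker was tested, of 4 listed.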

How the data were processed

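RNA from 9 samples was hybridised to whole-transcript Affymetrix arrays. Each deposited value is the log2 signal of a probe set on 1 array. Per the submitters' processing notes, Affymetrix Expression Console made these values. The sources used here state neither its version nor how it summarized and normalized the probes, and no further normalization was applied. The table held 38408 probe sets, 0 missing values and 0 further sample columns. The annotation listed 17481 probe sets, 16722 with 1 gene and 759 with several, and left 20927 unnamed. Symbols of 16574 were updated by gene ID with RefSeq (TAIR10.1). No coordinates are printed, since the sources used here do not name the genome build of the probe sets.

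The functions lmFit and eBayes of limma 3.58.1, under R 4.3.3, fitted all 9 arrays with 1 term per group, and p-values are two-sided, with Benjamini-Hochberg adjustment over the 16722 probe sets with 1 gene. The fit was also run on simulated data with known changes and independent normal noise, with the same SD on every array of a probe set. Those data lack the deviating array and the repeated values, so they do not test the calls made here. Every member is named, with the 5 genes most like the member of smallest F-test p and up to 3 genes of smallest F-test p per list. Named beyond this rule are CML23, the root marker EXPA7 and TMT3. Non-GLR neighbours are named only for GLR3.6. The members and lists were chosen with earlier results of these data known. Alternatives were quantile normalization, median centring, filters at the 25th and 50th percentile, all probe sets, only the groups compared, trend and robust options, array weights, a replicate block, and each array left out. The number of arrays limits the precision.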

Additional observations from a re-analysis of the deposited data

How the results depend on the processing

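Over 655 values of the 9 members under the alternatives, 610 kept their side of the threshold and, for differences, their direction, 27 lost and 8 gained a call, and 10 changed sign. All sign changes were in uncalled values. For 4'-OH-2,5-DCB minus control these were 0.058, 0.089 and 0.057 for GLR3.3 and 0.15, 0.172 and 0.142 for GLR3.5 (with array weights, without that group's replicate 1, and with quantile normalization of the other 8 arrays, which was added after seeing the data), -0.1 for GLR2.7 without that group's replicate 3 and -0.073 for GLR2.8 without control replicate 2. For 4'-OH-2,5-DCB minus 2,5-DCB they were 0.199 for GLR2.8 and 0.01 for GLR2.9 without 2,5-DCB replicate 3. With 1 array left out, 4'-OH-2,5-DCB minus control ranged from -0.26 to 0.089 for GLR3.3, -0.452 to 0.172 for GLR3.5, -0.1 to 0.419 for GLR2.7 and -0.073 to 1.507 for GLR2.8, and the difference between the exposures from -0.553 to 0.199 for GLR2.8 and -0.278 to 0.01 for GLR2.9.

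The count of GLR genes called higher under 2,5-DCB, 1, was 0 with median centring or all probe sets, 2 with array weights, and 0 to 2 with 1 array left out. The count called lower, 1, was 0 to 1 with 1 array left out. Over all probe sets 4.65% were called under 2,5-DCB as reported, 4.26% with median centring, 3.43% with all probe sets and 14.7% with array weights. With 1 array left out this share was 1.08% to 12.9%, highest without 4'-OH-2,5-DCB replicate 1, the fit with 2 genes called higher. The count passing the F-test, 1, was 0 with median centring or all probe sets, 2 with either percentile filter and 3 with array weights. It was 2 with quantile normalization of the other 8 arrays and 0 to 2 with 1 array left out. Over all probe sets 4.01% passed the F-test as reported, 4.17% with median centring and 3.04% with all probe sets. The share was 7.54% and 11.5% with the 25th and 50th percentile filters, 16.4% with array weights and 12.8% with that quantile normalization. With 1 array left out it was 0.682% to 12.4%, highest without 4'-OH-2,5-DCB replicate 1, the fit with a count of 2. Same-numbered arrays had correlations of deviations between -0.247 and 0.074. These values give no sign of pairing by number, but with 3 arrays per group they cannot exclude it, and the labels state none. With a replicate block 0 GLR genes were called higher, 0 lower and 0 by the F-test, and 397 of all probe sets passed under 2,5-DCB in place of 777. That total ranged from 181 to 2161 with 1 array left out, and that under 4'-OH-2,5-DCB, 486, from 93 to 1197.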
